A study of Mus musculus with 21 samples.

Results

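The 50 genes described here act in G2 and mitosis, and their transcripts were followed in C3H/10T1/2, mesenchymal progenitors of an embryonic mouse line, in cells that differed in histone H2B. The genes were chosen by name, as a list of cell division genes, and all 50 were found by symbol among the 24091 genes of the deposited TPM table. TPM is transcript abundance per length, scaled to a fixed sum in each library. There were 6 mutant groups, E71K, E71Q, E76K, E76Q, E113K and E113Q, in which a glutamate of H2B was replaced by lysine (K), which carries a positive charge, or by glutamine (Q), which carries none, and cells with wild-type H2B (WT). Each of the 7 groups had 3 libraries, 21 in all, which the series calls independent biological replicates. All groups shared the parental line and the culture conditions, and no other allele or treatment is named. How the mutant H2B was introduced, which promoter drives it, whether a group is 1 clone, and whether the endogenous H2B genes remain intact are not given in the sources used here. Effects of a substitution and differences between cell lines thus cannot be told apart, and a p-value here covers no more than the spread among the libraries.

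Genes of this kind are transcribed late in the cell cycle, so their transcripts are abundant in cells that are about to divide and scarce in cells that have left the cycle. Cyclin B with the kinase CDK1 drives entry into mitosis, kinetochore proteins tie chromosomes to the spindle and hold the checkpoint, and the anaphase-promoting complex then marks cyclins and securin for destruction. Transcription of the set depends on the MuvB complex, which works with B-MYB (Mybl2) and FOXM1 and binds a promoter element called the cell cycle genes homology region (CHR), and on NF-Y, which binds CCAAT boxes. In resting cells MuvB joins the DREAM complex, which represses the same promoters. In mesenchymal progenitors a fall of these transcripts is commonly seen when cells become quiescent or differentiate.

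The files give no read counts, so the depth of a library is unknown and counting limits cannot be stated. The summed TPM of each library was between 999897 and 999931. The locus Mir6236 took between 2.19% (E113K replicate 3) and 30.6% (E71K replicate 2) of the TPM of a library, which lowers every other value in that library. Mesenchymal markers summed to between 9123 and 14196 TPM in the 21 libraries, although Thy1 was listed at 0 in some. Of markers of other cell types, the leukocyte list summed to at most 2.15 TPM, with Cd3e listed at 0 in every library, the endothelial list to at most 3.51 TPM, with Cldn5 listed at 0, and the muscle list to at most 8.59 TPM. The epithelial list reached 5.49 TPM in the mutants, against 11.6 to 13.0 TPM in WT. All 50 members averaged 1 TPM or more across the 21 libraries, the filter for testing, as did 12192 genes in all.

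The mitotic genes were lower than in WT in every library of E71Q, E76Q and E113K, and in E71K, E76K and E113Q the 3 libraries of a group did not lie together. For each library the level of the set was taken as the median over the 50 members of the difference of log2(TPM + 1) from the WT mean. This level was -2.26, -2.22 and -2.20 in E113K, -1.12, -1.66 and -1.52 in E71Q and -1.17, -1.15 and -1.17 in E76Q. It was 0.40, -0.13 and -0.78 in E71K, 0.18, 0.22 and -1.003 in E76K and 0.22, 0.17 and -1.61 in E113Q, against 0.00, -0.05 and 0.05 in WT. E113K was the lowest group and its libraries lay between -2.26 and -2.20. In E76K and E113Q replicates 1 and 2 stood slightly above the WT mean and replicate 3 stood far below it, and in E71K the 3 libraries were spread out from above to below WT. The order of the group means was E113K, E71Q, E76Q, E113Q, E76K, E71K and WT, at -2.23 ± 0.03, -1.43 ± 0.28, -1.17 ± 0.01, -0.41 ± 1.04, -0.20 ± 0.70, -0.17 ± 0.59 and 0.00 ± 0.05 (SD, n = 3 each). E71Q did not overlap E113K but reached up to the level of E76Q, and the libraries of E113Q, E76K and E71K overlapped each other and WT. The median over all 12192 tested genes lay between -0.30 and 0.21 in the same libraries, with -0.30 in E71K replicate 2, where Mir6236 took 30.6%. In bulk RNA, fewer cells in G2 and mitosis and less RNA of these genes per cell cannot be told apart.

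**Figure D1:**
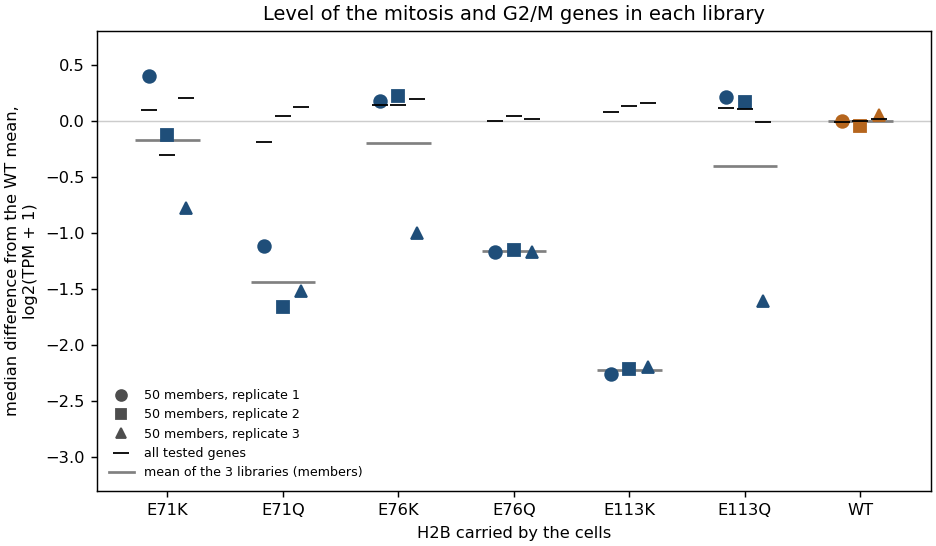
Level of the 50 mitotic and G2/M genes in each of the 21 libraries, as the median difference of log2(TPM + 1) from the WT mean (y axis), by group (x axis, mutants first). The 3 libraries of E113K lie between -2.26 and -2.20, whereas those of E113Q run from -1.61 to 0.22.

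As summed TPM, the 50 genes made up 743 ± 16.4 TPM in E113K, 1298 ± 248 TPM in E71Q and 1550.4 ± 19.2 TPM in E76Q. The sum was 3259 ± 1240.1 TPM in E71K, 3224 ± 1273 TPM in E76K and 3114 ± 1725 TPM in E113Q, against 3606 ± 171 TPM in WT (SD, n = 3 each). In E71K, E76K and E113Q the members varied more between mates than the median gene did. The median over the members of the range between the 3 libraries, on the log2 scale, was 1.13 in E71K, 1.18 in E76K and 1.86 in E113Q, where over all tested genes it was 0.64, 0.26 and 0.32. In WT the members' median range was 0.15, beside 0.14 over all tested genes. Replicate 3 was the lowest of its group for 49 of the 50 members in E71K and for all 50 in E76K and in E113Q. E71Q differed in that replicate 1 was the highest of its group for 44 members. The 4 libraries E71K replicate 3, E71Q replicate 1, E76K replicate 3 and E113Q replicate 3 had been seen to stand apart in earlier results of these data, on an axis to which cell cycle genes contributed. Over the 12010 tested genes outside the lists used here, their root mean square log2 distance to their mates was 0.832 in E71K replicate 3 (mates 0.705 and 0.785), 0.661 in E71Q replicate 1 (0.563 and 0.603), 0.621 in E76K replicate 3 (0.554 and 0.576) and 0.689 in E113Q replicate 3 (0.630 and 0.626). In any group some library has to be the farthest, so these values are a description. Counts of members, and named calls that appear or disappear, are also given without the 4 libraries.

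**Figure D2:**
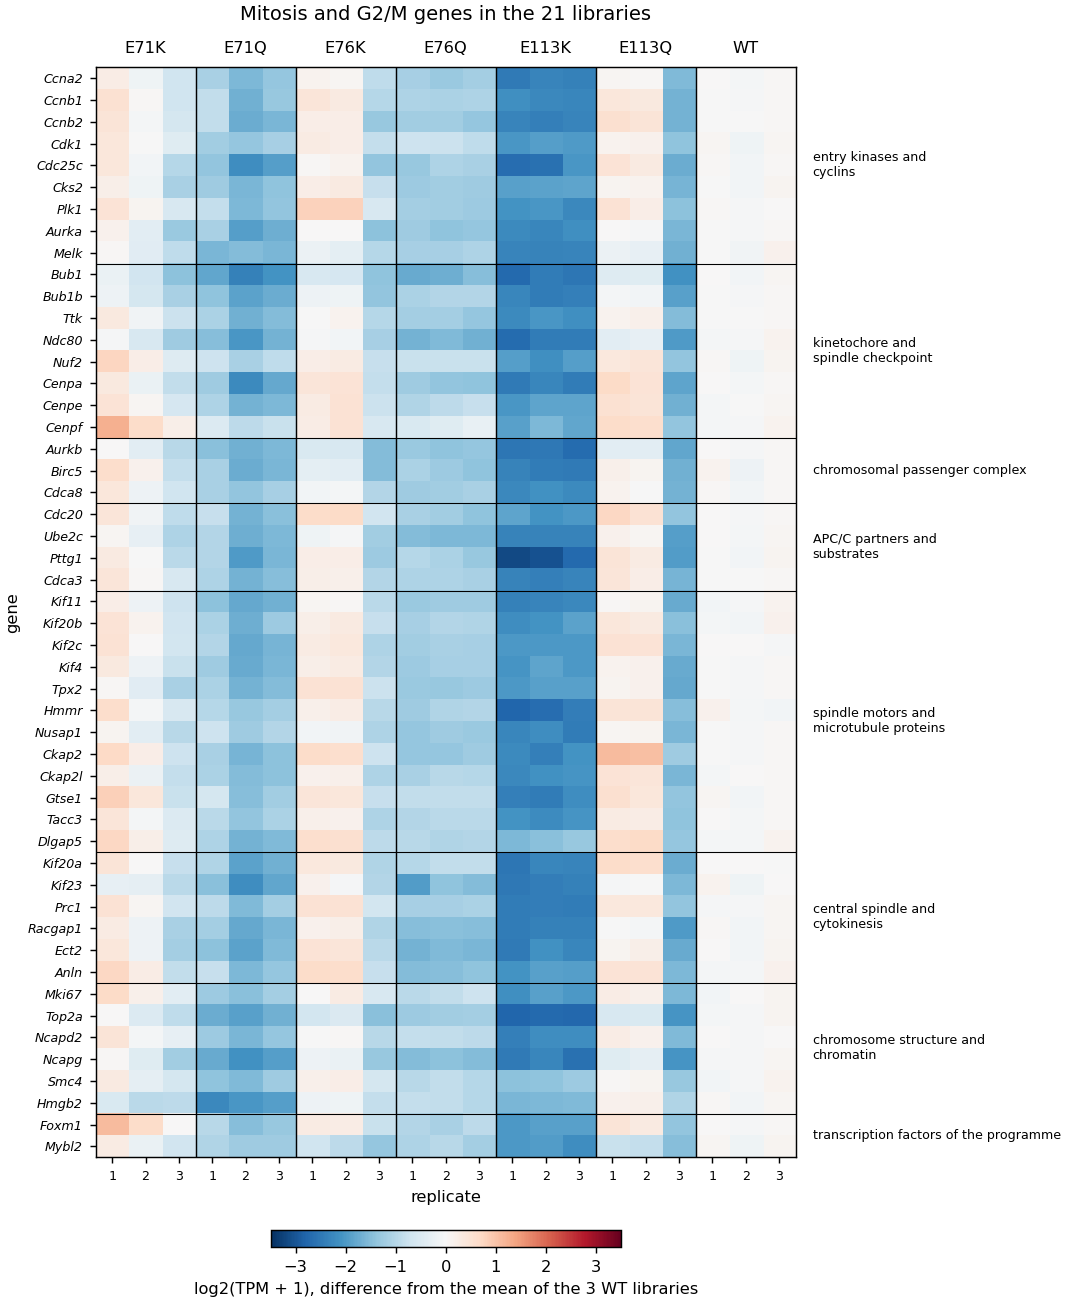
Difference of log2(TPM + 1) from the WT mean (colour) for each of the 50 members (rows, ordered by role) in each of the 21 libraries (columns, mutants first, WT last). The E71Q, E76Q and E113K columns are below WT for all 50 members, and replicate 3 stands apart from its mates in E76K and E113Q.

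The elements named above were looked for in the promoters of the members. The CHR was first described in genes of this kind, so its presence among the members is a description and no independent finding. RefSeq promoter windows on GRCm38.p6, 250 bases before to 50 after the start and 300 bases long, were matched by gene for 42 of the 50 members, and those not matched were Ccna2, Cdc25c, Aurkb, Tpx2, Dlgap5, Kif20a, Smc4 and Foxm1. Both strands were searched for TTTGAA and TTTAAA, the core of the CHR, and for CCAAT. The CHR letters and the CCAAT letters were counted separately. A CHR core was present for 34 of 42 members (81.0%) and for 30.6% of all 27025 genes with a window. A CCAAT box was present for 31 members (73.8%) and for 41.1% of all genes, and at least 2 of them for 22 members (52.4%) and 13.3% of all genes. Both elements occurred together for 29 members (69.0%), and for 12.2% of all genes. A CHR core that starts within 50 bases of the transcription start was found for 29 members (69.0%) and for 9.5% of all genes. The 6 members with neither were Melk, Mybl2, Nuf2, Nusap1, Pttg1 and Tacc3. These are matches of letters, and no binding was measured.

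The windows of 5 members show the arrangement, 5′ to 3′ on the strand of the gene, with CHR cores (TTTGAA or TTTAAA, or TTCAAA on the other strand) and CCAAT boxes (ATTGG where the box is on the other strand) in capitals. Ccnb2 and Cdk1 were chosen because cyclin B and CDK1 form the kinase that starts mitosis, Plk1 and Cdc20 for the steps that follow, and Mybl2 as a member of the regulatory complex without either element. The windows lie at chr9:70421505-70421804, minus strand (Ccnb2), chr10:69352863-69353162, minus strand (Cdk1), chr7:122159185-122159484, plus strand (Plk1), chr4:118437294-118437593, minus strand (Cdc20) and chr2:163054385-163054684, plus strand (Mybl2). In Ccnb2 the CCAAT boxes start 87, 54 and 21 bases before the transcription start and a CHR core lies 4 bases after it. In Cdk1 the CHR cores start 71 and 15 bases before the start, and in Cdc20 a CHR core starts 18 bases before it between CCAAT boxes at 53 and 8.
Ccnb2: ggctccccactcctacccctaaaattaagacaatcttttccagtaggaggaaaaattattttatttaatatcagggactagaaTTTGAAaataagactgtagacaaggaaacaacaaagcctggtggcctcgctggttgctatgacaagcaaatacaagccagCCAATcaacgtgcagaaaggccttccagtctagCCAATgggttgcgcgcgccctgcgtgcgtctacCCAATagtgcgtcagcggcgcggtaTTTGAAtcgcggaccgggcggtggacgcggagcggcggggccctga
Cdk1: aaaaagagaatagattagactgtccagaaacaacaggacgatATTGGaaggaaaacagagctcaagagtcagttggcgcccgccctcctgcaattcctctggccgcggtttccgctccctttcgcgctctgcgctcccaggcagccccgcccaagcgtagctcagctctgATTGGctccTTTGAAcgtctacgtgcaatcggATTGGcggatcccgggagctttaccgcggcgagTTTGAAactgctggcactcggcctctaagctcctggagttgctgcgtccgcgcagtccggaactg
Plk1: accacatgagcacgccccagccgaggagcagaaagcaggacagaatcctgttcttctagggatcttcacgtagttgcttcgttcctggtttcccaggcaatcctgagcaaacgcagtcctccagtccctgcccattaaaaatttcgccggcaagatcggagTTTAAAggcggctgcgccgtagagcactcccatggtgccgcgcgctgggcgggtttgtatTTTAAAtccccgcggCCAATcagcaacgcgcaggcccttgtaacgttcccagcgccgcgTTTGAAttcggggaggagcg
Cdc20: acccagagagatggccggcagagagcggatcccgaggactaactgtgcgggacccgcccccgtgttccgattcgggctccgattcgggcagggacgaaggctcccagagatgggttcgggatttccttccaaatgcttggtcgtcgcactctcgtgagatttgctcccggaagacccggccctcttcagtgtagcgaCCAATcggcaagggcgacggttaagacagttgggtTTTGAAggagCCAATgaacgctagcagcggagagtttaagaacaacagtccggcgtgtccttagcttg
Mybl2: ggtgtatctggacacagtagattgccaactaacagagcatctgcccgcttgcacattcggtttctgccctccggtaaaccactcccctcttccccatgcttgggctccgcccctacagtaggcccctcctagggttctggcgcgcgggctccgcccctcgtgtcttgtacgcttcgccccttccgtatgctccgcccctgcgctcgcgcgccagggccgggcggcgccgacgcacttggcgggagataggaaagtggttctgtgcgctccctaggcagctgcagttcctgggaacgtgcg

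**Figure D3:**
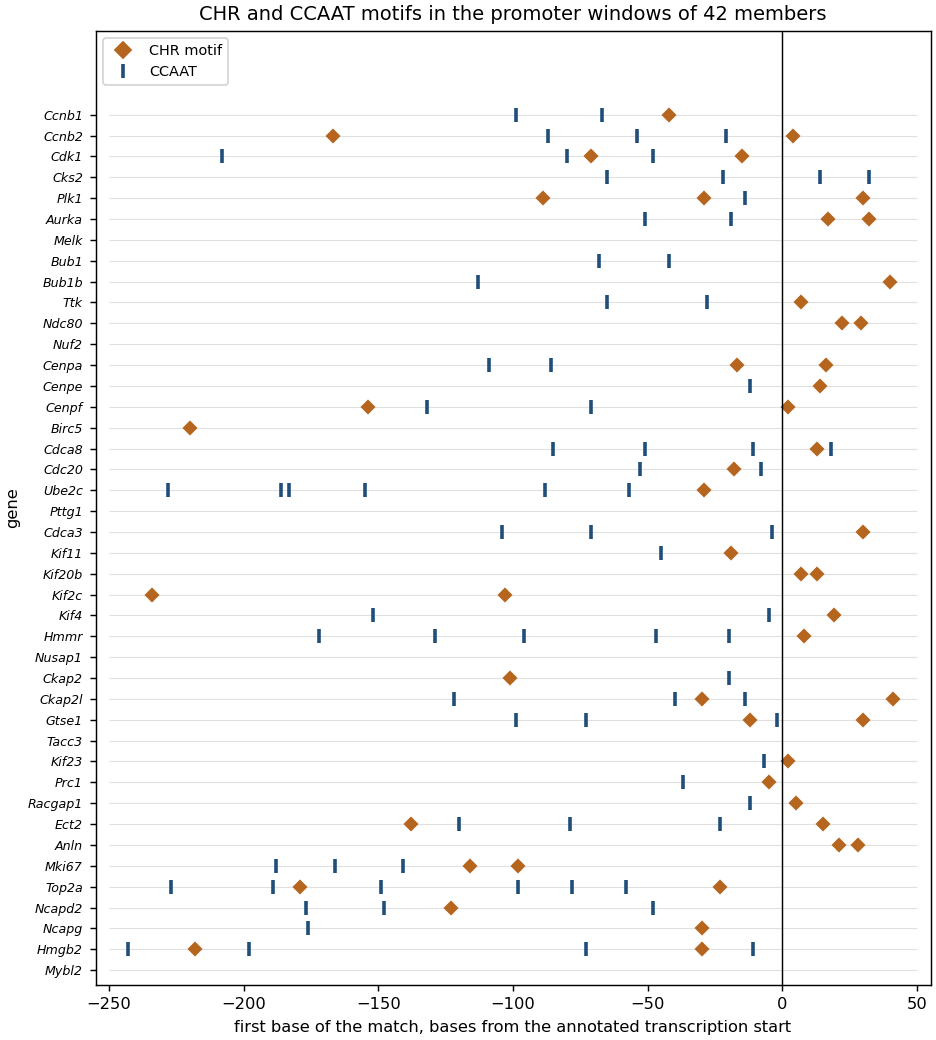
Positions of CHR cores and CCAAT boxes (markers) in the promoter windows of the members (rows) by distance from the transcription start in bases (x axis). CHR cores gather near the start, and 29 of 42 members have one that starts within 50 bases of it.

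Against WT the test across all genes, limma with Benjamini-Hochberg adjustment and an adjusted p below 0.05 as the threshold, called falls and no rises among the members. In E113K all 50 members fell, where 51% of all tested genes were called and 20.7% fell. In E71Q 47 members fell, where 44.2% of all tested genes were called and 23.5% fell, and the 3 that did not pass were Nuf2 (-0.92 ± 0.39, adjusted p = 0.0636), Cenpf (-0.72 ± 0.40, adjusted p = 0.159) and Gtse1 (-1.11 ± 0.45, adjusted p = 0.0559). In E76Q 37 members fell, where 44.3% of all tested genes were called and 22.4% fell. A single member, Hmgb2, fell in E71K (26.7% of all tested genes called, 14.2% lower), 3 in E76K (33.2% called, 9.67% lower) and 3 in E113Q (30.6% called, 12.7% lower), shares below those of all genes. The median log2 fold change of the members was -2.25 in E113K, -1.42 in E71Q and -1.18 in E76Q, and it was -0.38 in E113Q, -0.22 in E76K and -0.19 in E71K. Over all tested genes the medians in the same order were 0.13, 0.00, 0.02, 0.06, 0.16 and 0.00. All comparisons use the same 3 WT libraries. The model takes 1 spread per gene from all 7 groups, so scatter within E71K, E76K and E113Q enters the SE and p-value of every comparison. The level of the set had an SD of 0.01 in E76Q and 1.04 in E113Q, so a value that did not pass in E76Q does not reflect the spread of E76Q alone.

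Counted by separation of the groups, all 50 members had every library below every WT library in E113K (30.2% of all tested genes), in E71Q (31.5%) and in E76Q (35.1%). In E76K 10 members did (19.3% of all tested genes), in E113Q 8 (22.6%) and in E71K 4 (17.9%). The E76Q count of 37 was between 20 and 23 whichever E76Q or WT library was left out, with medians of the members between -1.22 and -1.17, and 50 in a fit of those 6 libraries alone. The E71Q count was 31 without E71Q replicate 2 and 37 to 48 with any of the other libraries of E71Q or WT left out. In E113K all 50 were called whichever library was left out. With the 4 libraries that stood apart left out, 20 members rose and 5 fell in E113Q (30% of all tested genes higher, 14.3% lower), 15 rose and 5 fell in E76K (30.9% higher, 12.9% lower), and 9 rose and 3 fell in E71K (13.4% higher, 27.3% lower). The medians of the members were then 0.18, 0.20 and 0.13. Of the libraries left out, 3 are the lowest of their groups for nearly all of these same genes, so the direction of this change is largely set by which libraries were left out, and its p-values are not independent evidence of a rise. The same holds for rises of single genes given without the 4 libraries. Their absence also narrows the spread that all tests share, so calls gained in E76Q that way rest on the same choice of libraries. Leaving out only E113Q replicate 3 gave 1 rise and 1 fall in E113Q. The direction of the E71K, E76K and E113Q medians turned positive without replicate 3 of each group.

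**Figure D4:**
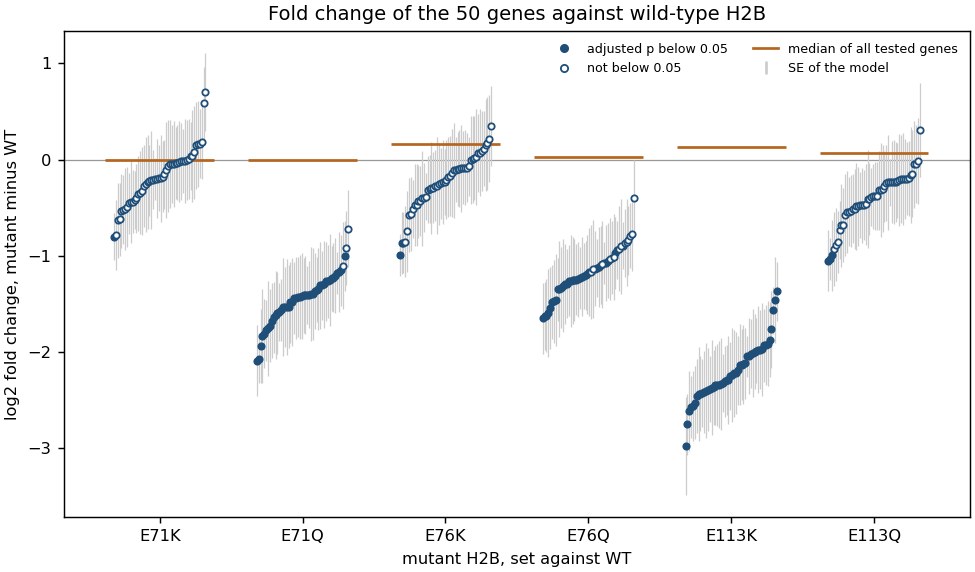
Log2 fold change against WT (y axis) of the 50 members (points, sorted within each mutant, with the SE as bars) in each of the 6 mutants (x axis), filled where the adjusted p was below 0.05, with the median of all tested genes as a line. All points of E113K lie at or below -1.37, and 1 point is filled in E71K, 3 in E76K and 3 in E113Q.

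Among the kinases and cyclins of mitotic entry, 9 of 9 in E113K, 9 in E71Q and 6 in E76Q fell, and none of the 9 was called in E71K, E76K or E113Q. Of all tested genes 20.7% fell in E113K, 23.5% in E71Q and 22.4% in E76Q. In E71K, E76K and E113Q 26.7%, 33.2% and 30.6% of all tested genes were called. The roles here and below are parts of the same 50 genes, and no role was tested against another. Ccnb1 encodes cyclin B1, the partner of CDK1. Ccnb1 stood at 112, 79.95 and 46.99 TPM in E71K, 104, 96.4 and 37.9 TPM in E76K and 16.8, 15.6 and 15.04 TPM in E113K. With glutamine, Ccnb1 stood at 41.9, 23.3 and 30.1 TPM in E71Q, 36.2, 35.2 and 36.1 TPM in E76Q and 102, 98.1 and 24.1 TPM in E113Q, against 77.4, 75.8 and 79.1 TPM in WT. E113K was the lowest, and replicate 3 was the lowest library of its group in E71K, E76K and E113Q. The log2 fold change of Ccnb1 was -2.22 ± 0.45 (SE, adjusted p = 6.10e-04) in E113K and -1.30 ± 0.45 (SE, adjusted p = 0.0266) in E71Q, and it was -1.09 ± 0.45 in E76Q (adjusted p = 0.0583), where all 3 libraries were below WT but the test was not passed. The E71Q call was lost with any E71Q or WT library left out other than E71Q replicate 1, at -1.31 to -1.10, and without the 4 libraries that stood apart the E76Q value passed, at -1.09 (adjusted p = 1.64e-06). In E71K it was -0.04 (95% interval -0.99 to 0.90), in E76K -0.09 (95% interval -1.04 to 0.86) and in E113Q -0.30 (95% interval -1.25 to 0.65), with intervals that include 0. Cdk1 encodes the kinase itself. Cdk1 stood at 119, 88.8 and 66.6 TPM in E71K, 111, 105 and 49.9 TPM in E76K and 21.1, 22.8 and 21.9 TPM in E113K. With glutamine, Cdk1 stood at 38.4, 34.8 and 39.8 TPM in E71Q, 54.2, 52.7 and 48.04 TPM in E76Q and 97.95, 99.5 and 33.2 TPM in E113Q, against 95.1, 81.6 and 93.99 TPM in WT. Its log2 fold change was -1.99 ± 0.34 (SE, adjusted p = 1.22e-04) in E113K, -1.24 ± 0.34 (SE, adjusted p = 0.00669) in E71Q and -0.79 ± 0.34 in E76Q (adjusted p = 0.0651). The E76Q value passed without the 4 libraries that stood apart, at -0.79 (adjusted p = 1.43e-05).

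Plk1, the polo-like kinase that acts from mitotic entry to cytokinesis, was lowest in E113K. Plk1 stood at 71.2, 54.8 and 33.98 TPM in E71K, 88.9, 90.3 and 33.97 TPM in E76K and 11.1, 11.6 and 9.74 TPM in E113K. With glutamine, Plk1 stood at 27.8, 16.5 and 18.7 TPM in E71Q, 21.8, 21.3 and 20.6 TPM in E76Q and 72.4, 59.6 and 18.3 TPM in E113Q, against 52.3, 49.1 and 50.8 TPM in WT. It fell by 2.13 in E113K (adjusted p = 4.32e-04), by 1.27 in E71Q (adjusted p = 0.0197) and by 1.22 in E76Q (adjusted p = 0.0243) on the log2 scale. The E76Q call was lost whichever of the 6 libraries was left out, at -1.24 to -1.20, and the E71Q call without E71Q replicate 2 or 3 or WT replicate 1, at -1.25 to -1.12. In E76K replicates 1 and 2 were above every WT library, and replicate 3 was below them. Its E76K value was 0.81 (adjusted p = 6.34e-05) without the 4 libraries that stood apart, against 0.35 ± 0.41 with them. E76K replicate 3 is among those left out, so this p-value is not independent evidence of a rise. Cdc25c, the phosphatase that activates CDK1, had the largest fall of this group in E71Q, -1.83 ± 0.49 (SE, adjusted p = 0.00592), at 6.42, 3.27 and 4.08 TPM in E71Q against 19.1, 17.1 and 19.1 TPM in WT. Aurka, the kinase of the spindle poles, was at 11.5 ± 0.580 TPM in E113K, 18.8 ± 5.80 TPM in E71Q and 22.2 ± 1.30 TPM in E76Q, against 57.2 ± 1.68 TPM in WT (SD, n = 3 each). Ccna2 (cyclin A2), Ccnb2 (cyclin B2), Cks2 (a subunit of CDK complexes) and Melk (a kinase) also fell in E113K, with log2 fold changes of -2.39, -2.33, -1.87 and -2.32.

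Of the kinetochore and spindle checkpoint genes, 8 of 8 in E113K, 6 in E71Q and 5 in E76Q fell, and of the 3 genes of the chromosomal passenger complex all fell in these mutants. The shares of all tested genes that fell were 20.7%, 23.5% and 22.4% in the same order. Bub1, a kinase of the spindle checkpoint, had every mutant library below every WT library. Bub1 stood at 28.7, 21.3 and 11.9 TPM in E71K, 23.04, 22.3 and 12.2 TPM in E76K and 4.37, 5.43 and 5.08 TPM in E113K. With glutamine, Bub1 stood at 8.91, 5.82 and 7.27 TPM in E71Q, 9.42, 9.76 and 11.4 TPM in E76Q and 24.8, 25.3 and 7.07 TPM in E113Q, against 34.6, 31.9 and 36.1 TPM in WT. Bub1 fell by 2.56 in E113K (adjusted p = 2.39e-05), by 2.09 in E71Q (adjusted p = 2.07e-04), by 1.65 in E76Q (adjusted p = 0.0016) and by 0.996 in E113Q (adjusted p = 0.0481) on the log2 scale. It was -0.78 ± 0.37 in E71K (adjusted p = 0.131) and -0.85 ± 0.37 in E76K (adjusted p = 0.0833). The E113Q call was lost without E113Q replicate 3, where the value was -0.43, and without any of the WT libraries. It was kept without the 4 libraries that stood apart, at -0.43 (adjusted p = 0.0138). Ndc80, which binds microtubules at the kinetochore, was at 8.33 ± 0.942 TPM in E113K, 15.4 ± 3.06 TPM in E71Q and 16.4 ± 0.966 TPM in E76Q, against 52.8 ± 3.78 TPM in WT. Its fold change in E76Q, -1.62 ± 0.38 (SE, adjusted p = 0.00233), was among the 4 largest falls there. Cenpf, a large protein of the outer kinetochore, had the smallest log2 fold changes of all members in E71Q and E76Q. Cenpf stood at 28.7, 18.3 and 13.4 TPM in E71K, 13.8, 16.6 and 7.45 TPM in E76K and 2.34, 3.14 and 2.52 TPM in E113K. With glutamine, Cenpf stood at 7.96, 5.59 and 6.28 TPM in E71Q, 7.60, 8.22 and 9.43 TPM in E76Q and 18.5, 17.7 and 3.77 TPM in E113Q, against 10.7, 11.2 and 12.4 TPM in WT. Its E71K libraries were all above WT, yet the log2 fold change in E71K, 0.70 ± 0.40, had adjusted p = 0.222, and it fell in E113K (-1.77 ± 0.40 SE, adjusted p = 0.00161).

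In the chromosomal passenger complex, which corrects chromosome attachments and acts in cytokinesis, Aurkb is the kinase and Birc5 (survivin) and Cdca8 (borealin) are partners. Aurkb was at 10.6, 10.6 and 9.25 TPM in E113K, 45.2, 43.7 and 22.3 TPM in E76K and 26.3, 23.8 and 25.1 TPM in E76Q, against 66.1, 63.3 and 66.97 TPM in WT. It fell in E113K (-2.58 ± 0.32 SE, adjusted p = 6.19e-06) and was 1 of the 3 members that fell in E76K (-0.87 ± 0.32 SE, adjusted p = 0.0478). Without E76K replicate 3 its value in E76K was -0.55 and it was no longer called, and the call was also lost without any of the WT libraries. It was kept without the 4 libraries that stood apart, at -0.55 (adjusted p = 6.48e-04). Birc5 was at 40.2 ± 2.11 TPM in E113K, 78.8 ± 18.2 TPM in E71Q and 91.5 ± 9.65 TPM in E76Q, against 219.6 ± 22.3 TPM in WT.

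Partners and substrates of the anaphase-promoting complex fell for 4 of 4 in E113K, 4 in E71Q and 3 in E76Q. Beside them, 20.7%, 23.5% and 22.4% of all tested genes fell. Pttg1, securin, which holds separase inactive until anaphase, had the largest fall of all members in E113K. Pttg1 stood at 198, 155 and 81.9 TPM in E71K, 184, 185 and 65.1 TPM in E76K and 16.9, 18.1 and 22.9 TPM in E113K. With glutamine, Pttg1 stood at 77.5, 39.00 and 51.4 TPM in E71Q, 78.5, 72.9 and 62.8 TPM in E76Q and 214, 192 and 39.8 TPM in E113Q, against 157, 148 and 169.6 TPM in WT. The log2 fold change was -2.98 ± 0.51 (SE, adjusted p = 1.36e-04) in E113K and -1.53 ± 0.51 (SE, adjusted p = 0.0213) in E71Q, and -1.14 ± 0.51 in E76Q (adjusted p = 0.0784). Cdc20, the activator that brings substrates to the complex, was at 20.7, 17.4 and 18.1 TPM in E113K, 43.2, 23.6 and 27.2 TPM in E71Q and 34.2, 32.4 and 28.1 TPM in E76Q, against 77.1, 73.9 and 78.8 TPM in WT. In E113Q Cdc20 was at 127, 109 and 28.99 TPM, with replicates 1 and 2 above WT and replicate 3 below it. Ube2c, the ubiquitin-conjugating enzyme of the complex, fell in E76Q, -1.54 ± 0.43 (SE, adjusted p = 0.00762).

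Of the spindle motors and microtubule proteins 12 of 12 in E113K, 11 in E71Q and 9 in E76Q fell, and of the central spindle and cytokinesis genes 6 of 6 in E113K, 6 in E71Q and 5 in E76Q did. Beside both, 20.7%, 23.5% and 22.4% of all tested genes fell. Hmmr, which binds microtubules and hyaluronan, was at 10.2, 11.2 and 13.4 TPM in E113K against 84.7, 72.6 and 71.4 TPM in WT, a log2 fold change of -2.62 ± 0.42 (SE, adjusted p = 6.64e-05). Kif23, the motor of the central spindle, was at 25.5, 14.99 and 19.7 TPM in E71Q and 17.6, 26.5 and 24.2 TPM in E76Q, against 78.3, 64.7 and 72.00 TPM in WT. It fell by 1.63 in E76Q (adjusted p = 0.00147) and by 1.81 in E71Q (adjusted p = 6.12e-04). Ect2, which activates RhoA at the division plane, was among the 4 largest falls of E76Q (-1.60 ± 0.46 SE, adjusted p = 0.00919). It stood at 9.75, 10.7 and 10.3 TPM in E76Q against 33.1, 30.5 and 35.4 TPM in WT. Anln, anillin of the contractile ring, stood at 107, 106 and 38.7 TPM in E76K, 23.5, 23.98 and 25.4 TPM in E76Q and 15.3, 17.6 and 17.3 TPM in E113K, against 65.5, 64.9 and 75.8 TPM in WT. In E76K Anln was above every WT library in replicates 1 and 2 and below them in replicate 3.

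Of the 6 genes of chromosome structure and chromatin, 6 of 6 in E113K, 6 in E71Q and 4 in E76Q fell. Among all tested genes the shares that fell were 20.7%, 23.5% and 22.4%. Mki67, the proliferation marker Ki-67 that coats mitotic chromosomes, did not pass the test in E76Q, although its 3 E76Q libraries were all below WT. Mki67 stood at 65.7, 46.01 and 31.4 TPM in E71K, 41.4, 50.1 and 27.00 TPM in E76K and 8.48, 10.04 and 9.32 TPM in E113K. With glutamine, Mki67 stood at 16.2, 14.1 and 17.2 TPM in E71Q, 20.8, 21.8 and 24.3 TPM in E76Q and 48.9, 45.7 and 13.00 TPM in E113Q, against 37.7, 41.1 and 43.3 TPM in WT. Its log2 fold change was -2.02 ± 0.36 (SE, adjusted p = 1.82e-04) in E113K, -1.31 ± 0.36 (SE, adjusted p = 0.00681) in E71Q and -0.84 ± 0.36 in E76Q (adjusted p = 0.0644). Leaving out the 4 libraries that stood apart gave -0.84 (adjusted p = 5.95e-05) in E76Q and 0.43 (adjusted p = 0.027) in E71K. Both are past the threshold, but E71K replicate 3, left out there, was the lowest E71K library for Mki67. These p-values depend on which libraries were left out and are not independent evidence. Top2a, the topoisomerase that untangles sister chromatids, fell in E76K and E113Q besides E71Q, E76Q and E113K. Top2a stood at 232, 164 and 124 TPM in E71K, 148, 162 and 83.6 TPM in E76K and 32.9, 33.9 and 33.2 TPM in E113K. With glutamine, Top2a stood at 68.2, 61.1 and 70.6 TPM in E71Q, 94.1, 98.3 and 100.4 TPM in E76Q and 156, 159 and 54.3 TPM in E113Q, against 222, 223 and 249 TPM in WT. All E76K, E76Q, E113K, E113Q and E71Q libraries were below WT, and E71K replicate 1 was within the WT range. The log2 fold change of Top2a was -2.76 ± 0.32 (SE, adjusted p = 2.42e-06) in E113K, -1.05 ± 0.32 (SE, adjusted p = 0.0187) in E113Q and -0.86 ± 0.32 (SE, adjusted p = 0.0462) in E76K. The E113Q call was lost without E113Q replicate 3 (-0.54) or WT replicate 3, and the E76K call was lost with any E76K or WT library left out other than E76K replicate 2 (-0.57 without E76K replicate 3). Without the 4 libraries that stood apart it was -0.54 (adjusted p = 0.00204) in E113Q and -0.57 (adjusted p = 0.00152) in E76K.

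Hmgb2, a DNA-bending chromatin protein, was the only member called in E71K. Hmgb2 stood at 99.6, 75.6 and 76.6 TPM in E71K, 129, 131 and 81.7 TPM in E76K and 47.8, 48.8 and 49.01 TPM in E113K. With glutamine, Hmgb2 stood at 29.8, 34.5 and 37.6 TPM in E71Q, 81.2, 80.2 and 72.8 TPM in E76Q and 163, 165 and 70.4 TPM in E113Q, against 150.0, 135 and 153 TPM in WT. The libraries of E71K, E71Q, E76K, E76Q and E113K were all below WT, while E113Q had replicate 3 below WT and replicates 1 and 2 above it. Hmgb2 fell by 0.80 in E71K (adjusted p = 0.0214), by 2.08 in E71Q (adjusted p = 3.06e-06), by 0.89 in E76Q (adjusted p = 0.00714) and by 1.57 in E113K (adjusted p = 5.87e-05) on the log2 scale. The call in E71K was lost when E71K replicate 2 or 3 or WT replicate 1 or 3 was left out. The E71K value was -0.73 without E71K replicate 2, and -0.93 without E71K replicate 1, where the call was kept. It stood at -0.74 (adjusted p = 4.74e-05) without the 4 libraries that stood apart. Ncapg, a condensin subunit, was among the 4 largest falls in E71Q (-1.94 ± 0.38 SE, adjusted p = 6.38e-04), at 10.02, 7.56 and 8.73 TPM in E71Q against 35.2, 35.4 and 38.3 TPM in WT. Smc4, an ATPase of condensin, had the smallest fall of all members in E113K (-1.37 ± 0.30 SE, adjusted p = 0.00126).

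Both transcription factors of the programme fell in E71Q, E76Q and E113K. Foxm1 encodes the forkhead factor that drives them late in the cycle. Foxm1 stood at 76.2, 55.3 and 34.8 TPM in E71K, 42.3, 41.7 and 19.6 TPM in E76K and 7.96, 8.55 and 8.58 TPM in E113K. With glutamine, Foxm1 stood at 17.2, 11.8 and 13.2 TPM in E71Q, 16.7, 15.4 and 17.8 TPM in E76Q and 47.9, 43.8 and 12.8 TPM in E113Q, against 34.9, 33.6 and 35.8 TPM in WT. E71K replicates 1 and 2 were above every WT library and replicate 3 lay within the WT range. The log2 fold change of Foxm1 was -1.93 ± 0.38 (SE, adjusted p = 4.70e-04) in E113K, -1.27 ± 0.38 (SE, adjusted p = 0.012) in E71Q and -1.02 ± 0.38 (SE, adjusted p = 0.0369) in E76Q, and 0.59 ± 0.38 in E71K (adjusted p = 0.281). With the 4 libraries that stood apart left out its value in E71K was 0.88 (adjusted p = 2.25e-05). That p-value is not independent evidence of a rise, since E71K replicate 3, left out there, was the lowest E71K library for Foxm1. In E76Q the Foxm1 call was lost whichever of the 6 libraries was left out, at -1.07 to -0.97. Mybl2, which encodes B-MYB, was not called in E71K. Mybl2 stood at 18.6, 12.8 and 9.18 TPM in E71K, 9.003, 7.56 and 5.26 TPM in E76K and 2.97, 3.17 and 2.58 TPM in E113K. With glutamine, Mybl2 stood at 6.71, 5.83 and 5.86 TPM in E71Q, 6.62, 7.26 and 6.13 TPM in E76Q and 8.33, 8.03 and 4.76 TPM in E113Q, against 15.8, 13.5 and 16.2 TPM in WT. Every library of E71Q, E76K, E76Q, E113K and E113Q was below every WT library, and the E71K libraries straddled WT. Mybl2 fell by 2.05 in E113K (adjusted p = 8.60e-07), 1.18 in E71Q (adjusted p = 3.36e-04), 1.07 in E76Q (adjusted p = 7.62e-04), 1.04 in E113Q (adjusted p = 0.00153) and 0.99 in E76K (adjusted p = 0.00213) on the log2 scale. The E76K and E113Q calls held with any library of those groups or WT left out. In E71K it stood at -0.20 (95% interval -0.66 to 0.26).

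The difference between lysine and glutamine ran in opposite directions at different residues. At E113 all 50 members were lower with lysine than with glutamine, where 28% of all tested genes were called and 13.3% were lower, and the median of the members was -1.77 beside 0.04 over all tested genes. At E71, 37 members were higher with lysine (25.1% of all tested genes called, 12.8% higher), with a median of 1.28 beside 0.00. At E76, 14 members were higher with lysine (31.9% called, 23.4% higher), a share close to that of all genes, with a median of 0.92 beside 0.14. In E113K 48 members had every library below every E113Q library (22.4% of all tested genes), 43 had every E71K library above every E71Q library (14.1%), and 34 had every E76K library above every E76Q library (40.9%). The 4 largest called differences at E113 were Pttg1 (-2.57 ± 0.51 SE, adjusted p = 0.00127), Ckap2 (-2.55 ± 0.49 SE, adjusted p = 9.37e-04), Hmmr (-2.42 ± 0.42 SE, adjusted p = 4.08e-04) and Prc1 (-2.22 ± 0.39 SE, adjusted p = 4.98e-04). Ckap2 and Prc1 act on microtubules, Prc1 by bundling those of the central spindle. Ckap2 stood at 9.35, 8.22 and 10.4 TPM in E113K against 105, 99.6 and 19.6 TPM in E113Q, and Prc1 at 14.8, 15.1 and 14.8 TPM in E113K against 110.2, 109.6 and 31.9 TPM in E113Q.

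At E71 the 4 largest called differences were Foxm1 (1.86 ± 0.38 SE, adjusted p = 0.00221), Cdc25c (1.60 ± 0.49 SE, adjusted p = 0.0246), Dlgap5 (1.58 ± 0.45 SE, adjusted p = 0.0167) and Cenpa (1.499 ± 0.50 SE, adjusted p = 0.0357). Dlgap5 stabilises spindle microtubules and Cenpa is the histone H3 variant of centromeres. Cenpa stood at 88.4, 58.9 and 37.9 TPM in E71K against 28.7, 14.04 and 19.7 TPM in E71Q. At E76 they were Anln (1.61 ± 0.48 SE, adjusted p = 0.0169), Ect2 (1.59 ± 0.46 SE, adjusted p = 0.0134), Plk1 (1.57 ± 0.41 SE, adjusted p = 0.00794) and Ckap2 (1.48 ± 0.49 SE, adjusted p = 0.0279). There 5 of the 6 genes of the central spindle and cytokinesis passed, beside 23.4% of all tested genes higher. Without E76K replicate 1 only 1 of the 50 members passed, so that count does not mark this role out. Of these named calls, Foxm1 at E71, Plk1 at E76 and the 4 at E113 held with any library of the groups compared left out, and the others were lost in at least 2 such settings. Ect2 stood at 46.6, 44.9 and 16.6 TPM in E76K against 9.75, 10.7 and 10.3 TPM in E76Q. Mybl2 was at 7.28 ± 1.89 TPM in E76K and 6.67 ± 0.565 TPM in E76Q, a difference of 0.09 (95% interval -0.37 to 0.54). The E71 count was 6 without E71K replicate 1, 9 without E71Q replicate 2, 16 without E71Q replicate 3 and 22 without E71K replicate 2. The E76 count was 1 without E76K replicate 1, 2 without E76K replicate 2, 36 without E76K replicate 3 and 5 to 7 without 1 of the E76Q libraries. Without the 4 libraries that stood apart the counts were 50 at E71 (53.5% of all tested genes called in either direction), 49 at E76 (49.4%) and 50 at E113 (44.7%), and at E113 the count was 43 to 50 with any library of E113K or E113Q left out. E71K replicate 3 and E76K replicate 3, among the 4, were the lowest of their groups for nearly all members. E71Q replicate 1 was the highest of its group for 44 members. Leaving them out raises the E71 and E76 differences, so these larger counts are largely set by that choice and are not independent evidence. E113Q replicate 3 was the lowest of its group for all 50 members, so its absence widens the E113 difference.

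**Figure D5:**
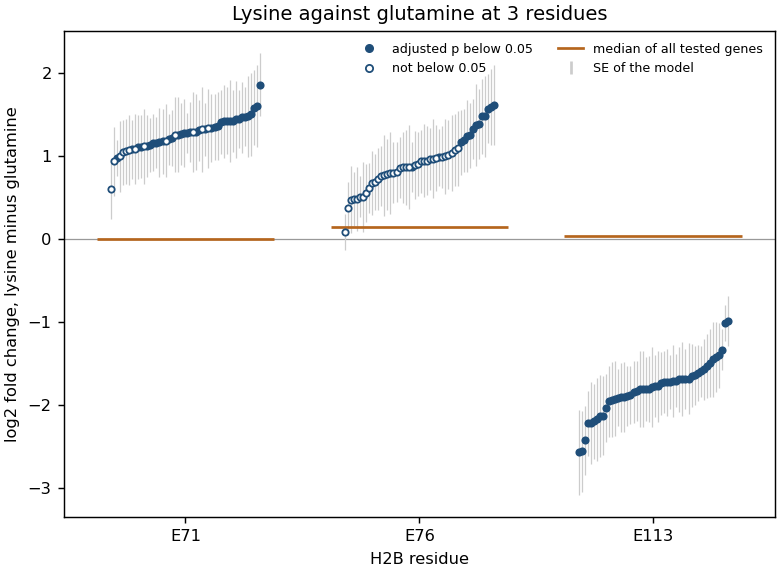
Log2 difference of lysine minus glutamine (y axis) of the 50 members (points, with the SE as bars) at E71, E76 and E113 (x axis), with the median of all tested genes as a line, filled where the adjusted p was below 0.05. The points at E113 are all below 0 and those at E71 and E76 are all above 0.

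The interaction terms test whether the difference between lysine and glutamine itself differed between residues. It differed between E113 and E71 for all 50 members (32.7% of all tested genes called, 16.1% lower), with a median of -3.06 beside 0.06 over all genes. It also differed between E113 and E76 for all 50 (29.5% called, 19.8% lower), with a median of -2.68 beside -0.08. Both counts were 50 whichever library was left out. Between E76 and E71 only Mybl2 passed (-0.89 ± 0.31 SE, adjusted p = 0.0464). Of all tested genes 21.7% were called there and 6.3% were lower. The Mybl2 call held without E71K replicate 3, E71Q replicate 1 or E76K replicate 1 and was lost without any of the other 9 libraries. Over all 12 settings its value ran from -1.12, without E71K replicate 3, to -0.65, without E71K replicate 1. In that interaction 22 members were lower and 1 was higher without the 4 libraries that stood apart, where 8.43% of all tested genes were lower. These calls also rest on the choice of libraries and are not independent evidence. Any difference among the 7 groups was called by the limma F test for all 50 members, and for 77.1% of all tested genes.

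The share of each member in the set shows how the members moved relative to each other. Some shares moved with the overall level inside a group, as that of Hmgb2 did, which was 3.90%, 4.08% and 6.27% in E113Q. As a share of the summed TPM of the 50 members, Foxm1 took 0.984% to 1.73% in the 18 mutant libraries and 0.952% to 0.980% in the 3 WT libraries. Within the mutants its share was highest in E71K, at 1.69% to 1.73%. Bub1 took 0.541% to 0.749% in mutant libraries and 0.930% to 0.958% in WT libraries, Ncapg 0.639% to 0.892% and 0.972% to 1.03%, and Ndc80 0.969% to 1.31% and 1.37% to 1.51%. For the other 46 members mutant and WT libraries overlapped. In E113K the share of Pttg1 was 2.34% to 3.02%, against 4.31% to 4.50% in WT, and that of Smc4 was 5.55% to 6.01%, against 2.90% to 3.23% in WT. Hmgb2 took 6.47% to 6.59% in E113K, 4.76% to 5.22% in E76Q, 3.27% to 4.66% in E76K, 2.22% to 3.80% in E71K and 1.90% to 3.20% in E71Q, against 3.95% to 4.14% in WT. The shares of the 50 genes sum to a fixed total, so they are not independent, all mutants are set against the same 3 WT libraries, and no test was made.

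Other mitosis genes outside the 50 fell as well. Of 53 tested, those that fell numbered 51 in E113K, 45 in E71Q, 40 in E76Q, 3 in E113Q, 1 in E76K and 1 in E71K, and none rose. Of all tested genes 20.7%, 23.5%, 22.4%, 12.7%, 9.67% and 14.2% fell in the same order, so the counts of E113Q, E76K and E71K lie below those shares. Cenph, a subunit of the inner kinetochore, was at 3.80 ± 0.330 TPM in E113K, against 38.9 ± 4.09 TPM in WT, a log2 fold change of -3.05 ± 0.37 (SE, adjusted p = 4.35e-06). Lmnb1, the nuclear lamin B1, was at 21.8 ± 1.17 TPM in E71Q, against 84.7 ± 2.51 TPM in WT, with -1.91 ± 0.23 (SE, adjusted p = 3.37e-06). Ccnf, cyclin F, was at 9.13 ± 0.887 TPM in E76Q, against 33.6 ± 0.185 TPM in WT, with -1.78 ± 0.27 (SE, adjusted p = 5.88e-05). The G1/S genes, which act before the members in the cycle, also fell: of 30 tested, 29 in E113K, 28 in E71Q, 28 in E76Q, 15 in E113Q, 7 in E76K and 5 in E71K. The same shares of all tested genes stand beside these counts, and the E71K count is close to its share of 14.2%. Uhrf1, which maintains DNA methylation at replication, was at 15.95 ± 1.12 TPM in E113K, against 87.1 ± 2.33 TPM in WT, and Mcm5, a subunit of the replicative helicase, was at 13.9 ± 1.16 TPM in E113K, against 82.7 ± 6.48 TPM in WT. In E113Q 15 of the 30 G1/S genes passed, beside 3 of the 50 members, a difference in counts that was not tested.

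The core of the anaphase-promoting complex, whose activators and substrates are among the members, had called shares at or below those of all tested genes. Of its 16 subunits and adaptors, 4 rose and 4 fell in E113K, 2 rose and 4 fell in E71Q, and 1 rose and 4 fell in E76Q, where 51%, 44.2% and 44.3% of all tested genes were called, with medians of -0.12, -0.03 and -0.01. Cdc16, a core subunit, was at 353 ± 15.2 TPM in E113K, against 189 ± 15.2 TPM in WT, a rise of 0.90 ± 0.23 (SE, adjusted p = 0.00324). Cdc16 also rose in E113Q (0.97 ± 0.23 SE, adjusted p = 0.00337) and in E76Q (0.93 ± 0.23 SE, adjusted p = 0.00309). It was not called in E71K, E71Q or E76K. Ube2s, which extends the ubiquitin chains, was at 174 ± 7.23 TPM in E71Q, against 316 ± 18.3 TPM in WT, with -0.86 ± 0.21 (SE, adjusted p = 0.00302). Of 12 MuvB and DREAM subunits, 1 rose and 6 fell in E113K, 1 rose and 8 fell in E71Q, and 8 fell in E76Q, beside the same shares of all tested genes. Lin9, a MuvB subunit, was at 2.95 ± 0.244 TPM in E113K, against 9.33 ± 0.640 TPM in WT. E2f4, the E2F of the DREAM complex, was at 23.3 ± 0.841 TPM in E76Q, against 66.1 ± 3.82 TPM in WT, with -1.47 ± 0.14 (SE, adjusted p = 3.47e-07). E2f4 was called lower in every mutant. Its log2 fold change was -1.08 ± 0.14 in E71K (adjusted p = 1.41e-05), -0.97 ± 0.14 in E76K (adjusted p = 4.74e-05) and -0.66 ± 0.14 in E113Q (adjusted p = 0.00186). Rbl1, the pocket protein p107, was at 6.21 ± 0.696 TPM in E113K, against 22.6 ± 0.873 TPM in WT.

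Of the CDK inhibitors and D cyclins 7 of 10 passed the filter. Cdkn1b, which encodes p27, an inhibitor of CDK2 that accumulates in resting cells, rose, at 176.5 ± 11.9 TPM in E113K, against 67.3 ± 3.94 TPM in WT (1.38 ± 0.16 SE, adjusted p = 3.40e-06). Cdkn1b was at 50.2 ± 8.39 TPM in E71Q, against 67.3 ± 3.94 TPM in WT (-0.43 ± 0.16 SE, adjusted p = 0.0424), and in E76Q it had -0.10 ± 0.16 (SE, adjusted p = 0.637). Cdkn1a, which encodes p21, was at 169 ± 1.79 TPM in E113K, against 271 ± 1.48 TPM in WT (-0.68 ± 0.10 SE, adjusted p = 3.66e-05), whereas in E71Q it had 0.31 ± 0.10 (SE, adjusted p = 0.0204). Ccnd1, cyclin D1, fell in E76Q (-1.53 ± 0.24 SE, adjusted p = 8.53e-05) and E71Q (-1.17 ± 0.24 SE, adjusted p = 9.43e-04), and in E113K it had -0.58 ± 0.24 (SE, adjusted p = 0.0569). The INK4 inhibitor Cdkn2c fell in E113K (-1.11 ± 0.19 SE, adjusted p = 1.70e-04), E71Q (-1.82 ± 0.19 SE, adjusted p = 8.28e-07) and E76Q (-1.36 ± 0.19 SE, adjusted p = 2.83e-05). Cdkn2c also fell in E71K (-0.72 ± 0.19 SE, adjusted p = 0.0102), and it was not called in E76K or E113Q. Differences of these regulators between mutants of different residues were not tested.

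Limits of the measurement touch some members by name. In GENCODE vM21 (GRCm38) the exons of 13 members overlap a gene on the opposite strand, such as Kif20a with Cdc23 and Ncapg with Lcorl, and those of Foxm1, Ncapd2 and Top2a overlap a gene on the same strand. Whether the libraries kept strand is not given in the sources used here, so reads of such pairs may not be told apart. Ccnb1, Ccnb2 and Kif4 have named pseudogene copies. The members lie on 18 chromosomes.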

How the data were processed

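The authors deposited TPM values for 24091 genes in 21 libraries, together with group means of the same TPM values, which were not used further. Per the labels' protocols, total RNA was purified on RNeasy columns, and NEBNext Ultra II chemistry gave the libraries. The submitters' processing notes name Salmon, featureCounts 1.4.4, DESeq and build mm10, without saying which made the TPM values. The 12192 genes that averaged 1 TPM or more were tested on log2(TPM + 1), which understates changes of low genes. limma 3.58.1 (R 4.3.3) took all 21 libraries in a linear model with 7 group means, with trended moderation (14 residual and 3.19 prior degrees of freedom) and Benjamini-Hochberg adjustment within each comparison. There were 6 comparisons with WT, 3 of lysine with glutamine, 3 interactions and an F test. The fit was tried on simulated data with equal spread in every group and genes drawn independently. The members here have unequal spread and move together, so that trial does not cover them. SD is over 3 libraries, SE is of the model, and the interval is 95%. The members and lists were chosen with earlier results of these data known, as were the 4 libraries left out together. Named in every mutant by rule were Mki67, Top2a, Ccnb1, Cdk1, Plk1, Foxm1, Mybl2 and Hmgb2, with the 4 called members of largest change in each comparison with WT or of lysine with glutamine, and other members as examples of their role. From each further list up to 3 called genes of largest change could be named, and the values of Cdkn1b in E71Q and E76Q, Cdkn1a in E71Q and Ccnd1 in E113K, outside that rule, were added after they were seen. Alternatives were other pseudocounts, filters and scalings, no variance trend, a replicate block, fewer libraries in the fit and libraries left out. The listed gene Casc5 was not found by symbol.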

Additional observations from a re-analysis of the deposited data

Results flagged for a closer look

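The difference between lysine and glutamine differed between residues by the limma interaction tests, which is what set these results apart. Between E113 and E71 it differed for 50 of the 50 mitotic and G2/M genes, where 32.7% of all tested genes were called. The values on the log2 scale were -3.11 for Mki67, -3.03 for Top2a, -3.18 for Ccnb1, -2.83 for Cdk1, -3.18 for Plk1, -3.59 for Foxm1, -1.99 for Mybl2 and -2.61 for Hmgb2. Between E113 and E76 it also differed for 50 of 50, where 29.5% of all tested genes were called. The members' values were -2.40 for Mki67, -2.07 for Top2a, -2.92 for Ccnb1, -2.29 for Cdk1, -3.47 for Plk1, -2.67 for Foxm1, -1.10 for Mybl2 and -1.84 for Hmgb2. Between E76 and E71 the difference itself differed for 1 member, Mybl2, at -0.89, where 21.7% of all tested genes were called.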

How the results depend on the processing

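The counts of members called in E113K, for E113K minus E113Q, in both interactions with E113 and in the F test stayed within 1.5 times under every alternative tried. Leaving out each library in turn gave counts of 0 to 1 in E71K, 31 to 48 in E71Q, 1 to 3 in E76K, 20 to 23 in E76Q, 1 to 7 in E113Q, 6 to 49 for E71K minus E71Q, 1 to 36 for E76K minus E76Q and 0 to 1 for the E76 minus E71 interaction. Without the 4 libraries that stood apart the counts were 12 in E71K, 20 in E76K, 25 in E113Q, 49 for E76K minus E76Q and 23 for that interaction. Those counts depend on which libraries were left out and are not independent evidence. With no filter on low values the counts were 1 in E76K, 24 for E71K minus E71Q and 0 for the interaction, which was also 0 with a mean of at least 5 TPM. After median-ratio rescaling they were 5 in E113Q, 9 for E76K minus E76Q and 2 for the interaction. With Mir6236 left out they were 9 for E76K minus E76Q and 2 for the interaction. With only the libraries of the groups compared they were 1 in E113Q, 23 for E76K minus E76Q and 0 for the interaction. The cause of these shifts was not tested. Over all tested genes the median change against WT was 0.01 in both E76K and E113K after rescaling, and 0.11 in E71K with Mir6236 left out, where it was 0.16 in E76K, 0.13 in E113K and 0.00 in E71K as reported.

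Replicate numbers did not pair the libraries across all groups: deviations of libraries with the same number correlated at -0.174 to 0.416, above 0.1 in 6, 1 and 6 of 21 pairs for numbers 1, 2 and 3, and 7 of 21 libraries matched best with their own number. Replicate 3 was still the lowest library for 49 of the 50 members in E71K and for all 50 in E76K and in E113Q. A pairing among only some groups was not tested. With replicate number as a block the counts were 6 in E113Q and 25 for E76K minus E76Q, and the other counts stayed within 1.5 times.

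The level of the set was -1.21 in E76Q and -2.34 in E113K with a pseudocount of 0.1, -1.04 and -1.85 with 5, and -1.08 and -2.27 with Mir6236 left out. In E113K it was -2.35 after rescaling.

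Single values that changed sign were all ones that did not pass the main test. Without the 4 libraries the E71K values were 0.29 for Ccnb1, 0.19 for Cdk1 and 0.030 for Mybl2, and with Mir6236 left out 0.085 for Ccnb1 and 0.11 for Cdk1. In E76K they were 0.16 for Mki67, 0.37 for Ccnb1, 0.26 for Cdk1 and 0.27 for Foxm1 without the 4 libraries. In E113Q they were 0.21 for Mki67, 0.37 for Ccnb1, 0.13 for Cdk1, 0.37 for Plk1, 0.39 for Foxm1 and 0.17 for Hmgb2. Of these, Ccnb1 in E76K (adjusted p = 0.0294) and Ccnb1, Plk1 and Foxm1 in E113Q (adjusted p = 0.0289, 0.0183 and 0.0121) passed as rises in the limma fit without the 4 libraries. Replicate 3 of E76K and of E113Q, left out there, was the lowest of its group for all 50 members. These p-values are therefore not independent evidence of a rise. Leaving out 1 library gave ranges in E71K of -0.092 to 0.43 for Mki67, -0.33 to 0.29 for Ccnb1, -0.22 to 0.19 for Cdk1, -0.23 to 0.29 for Plk1 and -0.44 to 0.030 for Mybl2. In E76K the ranges were -0.27 to 0.16 for Mki67, -0.35 to 0.37 for Ccnb1, -0.31 to 0.26 for Cdk1 and -0.27 to 0.27 for Foxm1. In E113Q they were -0.70 to 0.21 for Mki67, -0.65 to 0.37 for Ccnb1, -0.64 to 0.13 for Cdk1, -0.60 to 0.37 for Plk1, -0.52 to 0.39 for Foxm1 and -0.44 to 0.17 for Hmgb2. TPM keeps no read total, so what depth limits in these values cannot be stated.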
